A study of Sus scrofa with 6 samples.

Results

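The genes described are the solute carriers outside mitochondria, taken as those whose symbol starts with SLC followed by a number, without the mitochondrial SLC25A family (21 genes on this array), the scaffold SLC9A3R1 and the glucose carrier SLC2A1. This rule used names only and gave 97 of the 6765 genes with a value, from 147 probe sets. Both cell lines are spontaneously immortalised epithelial lines from the small intestine of newborn pigs, IPEC-1 and IPEC-J2, each grown untreated as a polarised layer on membrane inserts. Per the labels, both were kept at 39 °C with 5% fetal calf serum, 1% insulin-transferrin-selenium and 5 ng/mL epidermal growth factor, and were cultured on the inserts for 7 days, where the methods give a longer culture. For each line, 3 cultures gave 500 ng of RNA each, which was read on 1 Affymetrix Porcine Genome Array per culture, 6 in all. Each line is a single model of its kind, so a difference between the lines cannot be told apart from a difference between the animals or clones from which they came. The array work is described as independent experiments, and p-values here reflect nothing beyond the spread among these cultures.

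Solute carriers are membrane proteins that move nutrients, ions, vitamins and metabolites across the plasma membrane and the membranes of organelles. In the small intestine, carriers of the apical membrane take up sugars, amino acids, peptides, vitamins and metals from the lumen, and carriers of the basolateral membrane pass them on to the blood. Many apical carriers are driven by the sodium gradient that the sodium pump keeps up, and others by protons. Another set of carriers sits inside the cell and brings nucleotide sugars into the Golgi apparatus and the endoplasmic reticulum, where glycans are built.

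The signals are on a log2 scale with a lowest value of 4, called the floor here, which held 40.5 to 48.3% of the probe sets on an array. A signal at the floor is an upper limit of what the probe set read, and precision is limited by there being 3 arrays per line. Probe sets of the same gene can disagree on this. For SLC30A3, 1 probe set was at the floor on all 6 arrays, while the other had means of 8.33 in IPEC-1 and 8.34 in IPEC-J2. A gene at the floor is therefore not shown to be low or absent. IPEC-J2 replicate 1 was the dimmest array, with a 75th percentile of 8.31 against 8.51 to 8.56 on the others. Of the 97 solute carrier genes, 39 to 45 stood at the floor on a given array. All 10 epithelial marker genes had a signal in IPEC-J2, with EPCAM between 13.34 and 13.60 over the 6 arrays. Among them VIL1 (log2 difference 6.90, at the floor on IPEC-1 replicate 2), CLDN3 (2.14, at the floor in all IPEC-1 cultures) and CLDN7 (1.09) were called higher and KRT19 (-0.80) lower in IPEC-J2, and the summed signal was 15.23 to 15.29 (log2) in IPEC-1 and 15.59 to 15.76 in IPEC-J2. Of 8 markers of absorptive enterocytes with a value, 6 stood at the floor on all 6 arrays, among them ANPEP, FABP2 and the peptide carrier SLC15A1. Signals were seen for APOA1, at 9.90 to 11.27 over the 6 arrays (difference 0.45, not called), and for SLC5A1, described below. The sum over the 8 was 10.32 to 10.98 in IPEC-1 and 10.61 to 11.37 in IPEC-J2, with overlap. The labelled epithelial identity was thus seen in the markers, whereas most markers of a mature enterocyte were at the floor. The summed signal of 4 goblet cell markers was 13.04 to 13.82 (log2) in IPEC-1 and 8.0 to 9.25 in IPEC-J2. Of these, CLCA1 was called lower (-5.91), FCGBP (-1.45) and SPINK4 (0.63) were not called and differed in opposite directions, and TFF3 was at the floor on all arrays. The sum over 7 mesenchymal markers was 12.22 to 13.37 in IPEC-1 and 11.06 to 11.91 in IPEC-J2, but none of the 7 was called (VIM -1.38, adjusted p = 0.0989, COL1A2 -0.03), and COL3A1, DCN, LUM and ACTA2 were at the floor on all arrays. For markers of leukocytes (5 genes, with PTPRC and CD4 at the floor), endothelium (4 genes, 3 at the floor) and neurons or glia (3 genes, SNAP25 at the floor), the sums were 6.81 to 7.44, 6.62 to 6.74 and 7.35 to 7.90 in IPEC-1 against 6.32 to 6.81, 6.00 to 6.27 and 5.83 to 5.85 in IPEC-J2. In each of these lists 1 gene was called lower, CD3E (-1.93), PECAM1 (-1.46) and S100B (-3.31). The other genes with a signal, CD8A (-0.06), CD14 (0.245) and GFAP (0.04), were not called. The sum over 5 enteroendocrine markers, 4 of them at the floor, overlapped between the lines. The part of these markers in the differences below was not tested.

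The lines were compared by limma over all 6765 genes, and a gene with a Benjamini-Hochberg adjusted p under 0.05 is called higher or lower in IPEC-J2. Of the 97 genes, 28 stood at the floor on all 6 arrays, or 28.9%, against 18.5% of all genes. The other 69 are called measured. Of the 97 genes, 15 were called, or 15.5%, where 20.7% of all genes tested were called. Higher in IPEC-J2 were 6 of them (9.46% of all genes were) and lower were 9 (11.2% of all genes were). With arrays centred on their 75th percentile, 9 solute carriers were higher and 9 lower, and of all genes 800 were higher and 752 lower, against 640 and 761 without centring. Among measured genes the share called was 21.7% for solute carriers and 25.4% for all genes. The median log2 difference of the 69 measured solute carriers was 0.005, beside -0.05 over all measured genes, and 35 differences were positive and 34 negative. Solute carriers as a whole were therefore called no more often than other genes, and what follows is about single carriers.

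**Figure D1:**
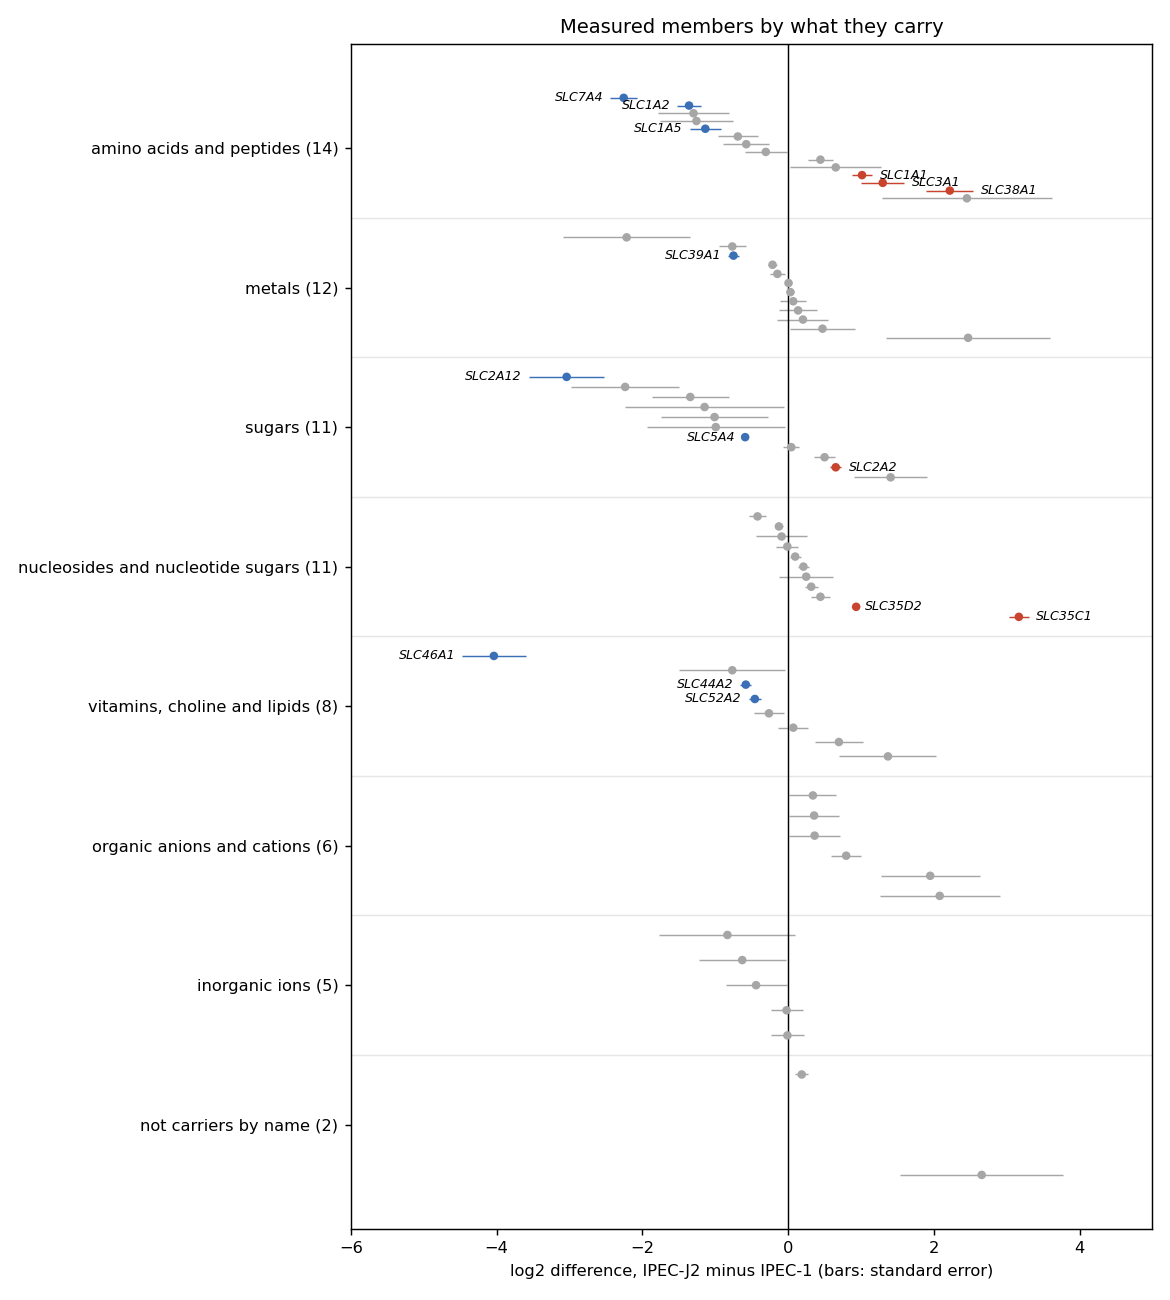
Log2 difference in signal (IPEC-J2 minus IPEC-1) of the 69 measured solute carrier genes, grouped by what they carry, the brackets giving how many were measured. Of these, 2 are not carriers despite their names and form a group of their own. Points are genes and bars standard errors from limma (red, called higher, 6 genes; blue, called lower, 9 genes; grey, not called). Amino acid carriers hold 3 blue and 3 red points, and the point of SLC46A1 lies at -4.04, that of SLC35C1 at 3.17.

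In all 15 called genes, every array of one line lay above every array of the other. This was also true of 18 genes that were not called, so that the lines did not overlap in 33 of 97 genes, or 34.0%, against 38.7% of all genes. Of these, 15 were higher in IPEC-J2 (16.2% of all genes were) and 18 lower (22.5% of all genes were). Descriptions of the samples tie IPEC-1 replicate 1 to IPEC-J2 replicate 3 by a shared culture note, called note A here, and IPEC-1 replicate 2 to IPEC-J2 replicate 1 by note B. As the lines did not overlap in any of the 15 called genes, their differences had to keep their sign within note A and within note B, each of which sets 1 array against 1. With the note as a block in the fit, where the remaining pair of arrays was taken as the third block without a label for it, 9 of the 15 calls held. When each array was left out in turn, 8 of the calls held every time (SLC46A1, SLC7A4, SLC1A2, SLC39A1, SLC5A4, SLC2A2, SLC35D2 and SLC35C1). The other 7 were lost without IPEC-J2 replicate 3, and some of them without other arrays too.

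Signals above the floor were also seen on single arrays where the other arrays of the line were at the floor. The 95th percentile of such stray signals was 7.85 for IPEC-1 and 7.78 for IPEC-J2, and folds are also given after a probe set mean below this level, taken from the line with the lower mean, was set to it. On this scale, 4 of the 15 called genes had no difference left (SLC1A2, SLC2A12, SLC5A4 and SLC35C1), because their means lay below the level in both lines.

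**Figure D2:**
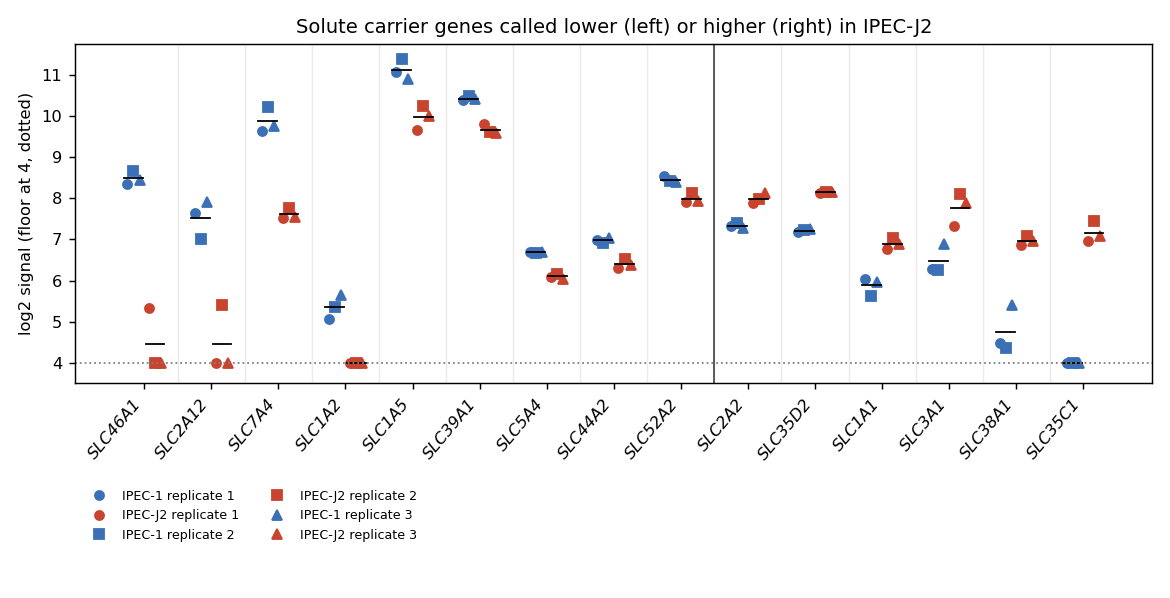
Log2 signal of the 15 called solute carrier genes on each of the 6 arrays (blue, IPEC-1; red, IPEC-J2; the marker shape gives the replicate), with black bars for the mean of each line and a dotted line for the floor at 4. Genes left of the vertical line were lower and those right of it higher in IPEC-J2. In none of the 15 genes do the colours overlap, and SLC46A1, SLC2A12, SLC1A2 and SLC35C1 have arrays at the floor.

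Carriers of amino acids and peptides held 6 of the 15 called genes, with 3 higher and 3 lower among 19 genes, of which 14 were measured. The higher genes were SLC1A1, the apical carrier of glutamate and aspartate, SLC3A1, the subunit that brings the cystine and basic amino acid carrier to the apical membrane, and SLC38A1, a sodium-coupled carrier of glutamine and other small neutral amino acids. The lower genes were SLC1A5, which exchanges glutamine and other neutral amino acids, SLC1A2, a glutamate carrier best known from glia, and SLC7A4, a relative of the cationic amino acid carriers whose substrate is not established.

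SLC38A1 had log2 signals of 4.47, 4.37 and 5.41 on IPEC-1 replicates 1, 2 and 3 and of 6.85, 7.09 and 6.97 on those of IPEC-J2. All IPEC-J2 arrays lay well above the IPEC-1 array with the highest signal, and the IPEC-J2 cultures were closer together. The mean was 4.75 ± 0.58 (SD, n = 3) in IPEC-1 and 6.97 ± 0.12 (SD, n = 3) in IPEC-J2, a 4.66-fold higher level (log2 difference 2.22, SE 0.323, adjusted p = 0.0150). The difference was 2.49 within each culture note, the adjusted p was 0.0539 with the note as a block, and the call was lost without IPEC-1 replicate 1 (0.0534), IPEC-J2 replicate 2 (0.0584) or IPEC-J2 replicate 3 (0.0644). The signal is the mean of 3 probe sets, with differences of 3.46 and 3.20 in 2 of them, while the third was at the floor on all arrays. With means raised to 7.85, SLC38A1 was 1.32-fold higher.

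SLC3A1 had signals of 6.28, 6.26 and 6.89 in IPEC-1 and of 7.33, 8.11 and 7.89 in IPEC-J2, without overlap. The level in IPEC-J2 was 2.46-fold that in IPEC-1 (log2 difference 1.30, SE 0.296, adjusted p = 0.0473), close to the threshold, or 1.28-fold with means raised to 7.85. Its 2 probe sets disagreed: the first was higher by 2.84 (adjusted p = 0.00319 among all probe sets), and the second differed by -0.25 (adjusted p = 1). The call was lost with the culture note as a block (0.0569), and it held without IPEC-J2 replicate 1 (0.0429) but with no other single array left out (0.0588 to 0.154). The light chain with which SLC3A1 forms the cystine carrier, SLC7A9, was at the floor on all 6 arrays.

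SLC1A1 had signals of 6.04, 5.63 and 5.98 in IPEC-1 and of 6.77, 7.04 and 6.88 in IPEC-J2, and was 2.02-fold higher (log2 difference 1.01, SE 0.142, adjusted p = 0.0136). The value is diluted by the mean over 5 probe sets. In 2 of them the difference was 2.53 and 2.51 (adjusted p = 0.0143 and 0.00817 among all probe sets), in another it was 0.44 (0.0630), and the remaining 2 were at the floor on all arrays or on all but 1. The call held with the culture note as a block (0.0385) and was lost without IPEC-J2 replicate 3 (0.0592).

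SLC7A4 had signals of 9.63, 10.21 and 9.76 in IPEC-1 and of 7.52, 7.76 and 7.55 in IPEC-J2. The lines were far apart relative to the spread within them, with means of 9.87 ± 0.30 (SD, n = 3) and 7.61 ± 0.13 (SD, n = 3). The level was 4.78-fold lower than in IPEC-1 (log2 difference -2.26, SE 0.182, adjusted p = 0.00334). Within note A the difference was -2.08 and within note B -2.69, and the call held with the note as a block (0.0423).

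SLC1A5 had signals of 11.06, 11.38 and 10.89 in IPEC-1 and of 9.67, 10.24 and 10.01 in IPEC-J2. Both lines had signals far above the floor, and IPEC-J2 was 2.20-fold lower (log2 difference -1.14, SE 0.209, adjusted p = 0.0269). The difference was -1.05 within note A and -1.71 within note B. The adjusted p was 0.139 with the note as a block, and the call was lost in every fit without 1 array other than IPEC-J2 replicate 2 (0.0556 to 0.0938).

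SLC1A2 had signals of 5.07, 5.35 and 5.66 in IPEC-1, whereas every IPEC-J2 array was at the floor. It was called lower (log2 difference -1.36 with the floor taken as the signal, adjusted p = 0.00901, 0.0553 with the culture note as a block), but its signals lay below the level of stray signals, so no lower bound of the fold above 1 can be given.

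Of the 8 other measured genes of this group, none was called. SLC3A2, the subunit that pairs with several amino acid exchangers, was at the floor on 4 arrays, those of IPEC-1 and IPEC-J2 replicate 1, and had signals of 7.63 and 7.73 on IPEC-J2 replicates 2 and 3. Its difference of 2.45 (95% interval -0.67 to 5.58, adjusted p = 0.243) became a call without IPEC-J2 replicate 1 (0.000134), and the difference was 0 within note B. SLC7A7, the light chain that releases basic amino acids at the basolateral side, had signals of 7.28, 7.52 and 8.37 in IPEC-1 and of 7.09, 7.19 and 7.17 in IPEC-J2. These did not overlap, but differed by only -0.57 (95% interval -1.42 to 0.27, adjusted p = 0.307). They average 2 probe sets of unlike level. The brighter had means of 10.88 in IPEC-1 and 10.30 in IPEC-J2 (difference -0.58, adjusted p = 0.115 among all probe sets). The other was above the floor on 1 IPEC-1 array only. The cationic amino acid carrier SLC7A1 differed by -0.69 (adjusted p = 0.171) and SLC38A9, an amino acid sensor of the lysosome, by -1.26 (0.177, and 0.0477 without IPEC-J2 replicate 2). The peptide carrier SLC15A2 differed by -1.30 (0.154, and 0.0280 without IPEC-1 replicate 2), although a probe set of it was called lower by -2.13 (adjusted p = 0.0109 among all probe sets). SLC38A10 differed by 0.44 (0.172), while SLC1A3 and SLC1A6 were above the floor on 1 array each. SLC15A1, SLC1A4, SLC36A2, SLC6A14 and SLC7A9 were at the floor throughout.

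**Figure D3:**
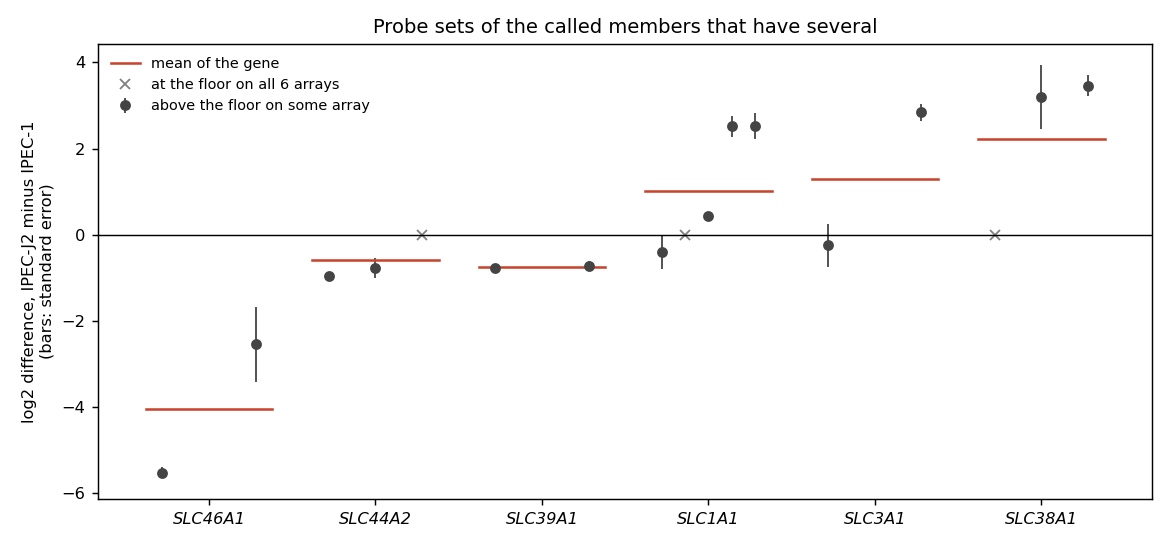
Log2 difference (IPEC-J2 minus IPEC-1) of each probe set of the 6 called genes that have several, with standard errors from limma over all probe sets (points), and the difference of the gene after averaging (red line). Crosses are probe sets at the floor on all 6 arrays. The 2 probe sets of SLC39A1 agree at -0.78 and -0.72, whereas those of SLC3A1 lie at 2.84 and -0.25.

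Among sugar carriers, 1 of 14 genes was higher in IPEC-J2 and 2 were lower, with 11 measured. The genes of apical and basolateral glucose transport did not move one way. SLC2A2, the facilitative carrier through which glucose and fructose leave the enterocyte, was higher, whereas the sodium-coupled SLC5A4 and the facilitative SLC2A12 were lower.

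SLC2A2 had signals of 7.33, 7.41 and 7.27 in IPEC-1 and of 7.88, 7.97 and 8.12 in IPEC-J2. The spread within a line was small, and IPEC-J2 was 1.57-fold higher (log2 difference 0.65, SE 0.0771, adjusted p = 0.00888). The difference was 0.79 within note A and 0.47 within note B, and the adjusted p with the note as a block was 0.0651. With means raised to 7.85 the difference was 0.14. SLC5A4 had signals of 6.70, 6.68 and 6.69 in IPEC-1 and of 6.08, 6.17 and 6.05 in IPEC-J2, a 1.51-fold lower level (log2 difference -0.59, SE 0.0350, adjusted p = 0.00142, 0.0272 with the note as a block). After quantile normalization it was no longer called. SLC2A12 had signals of 7.63, 7.00 and 7.90 in IPEC-1, and in IPEC-J2 a signal of 5.41 on replicate 2 only, with the other arrays at the floor. It was called lower (log2 difference -3.04 with the floor taken as the signal, adjusted p = 0.0219, 0.0473 with the note as a block). The call was lost in every fit without 1 array other than IPEC-J2 replicate 2 (0.0502 to 0.0805).

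SLC5A1, the sodium-glucose carrier of the brush border, had signals of 7.80, 7.89 and 7.65 in IPEC-1 and of 6.41, 6.22 and 4.00 in IPEC-J2. All IPEC-J2 arrays were below all IPEC-1 arrays, but replicate 3 of IPEC-J2 stood at the floor and widened the spread to an SD of 1.34. The difference of -2.24 (95% interval -4.22 to -0.26) was not called (adjusted p = 0.116). Without IPEC-J2 replicate 3 it was -1.46 and called (0.0126), and it was -3.80 within note A, which holds that array, and -1.48 within note B. It was also called when genes with a mean signal under 6 were left out (0.0447). With means raised to 7.78 the difference was 0.

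Of the remaining sugar carriers, SLC2A5, the fructose carrier of the brush border, was at the floor on all arrays, as were the insulin-dependent glucose carrier SLC2A4 and SLC5A10. The glucose carrier SLC2A3 varied within IPEC-1 (8.33, 7.07 and 5.73) and differed by -1.01 (adjusted p = 0.460). SLC37A4, the glucose 6-phosphate carrier of the endoplasmic reticulum, had signals of 7.95, 7.89 and 8.07 in IPEC-1 and of 8.28, 8.74 and 8.39 in IPEC-J2, without overlap (difference 0.50, adjusted p = 0.0823), and was called after quantile normalization and with arrays centred on their 75th percentile. SLC50A1 differed by 0.04 (95% interval -0.24 to 0.33). SLC45A2 and SLC45A3 differed by -1.34 (0.172) and 1.41 (0.135) without overlap, and without IPEC-J2 replicate 1 both were called (0.00458 and 0.0119). Both SLC37A1 and SLC2A8 were above the floor on a single IPEC-1 array each.

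Carriers of vitamins, choline and lipids had 3 lower and no higher gene among 11, with 8 measured. SLC46A1, the proton-coupled carrier that takes up folate in the upper small intestine, had signals of 8.36, 8.66 and 8.44 in IPEC-1. In IPEC-J2 it was at the floor on replicates 2 and 3 and at 5.34 on replicate 1. It was called lower (log2 difference -4.04 with the floor taken as the signal, SE 0.434, adjusted p = 0.00711), and with means raised to 7.78 it was 1.83-fold lower. The difference was -4.36 within note A and -3.33 within note B, and the call held with the note as a block (0.0380). One of its probe sets had a mean of 9.53 in IPEC-1 and stood at the floor in all IPEC-J2 cultures (adjusted p = 0.000165 among all probe sets), and the other differed by -2.55 (0.175).

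SLC44A2, a choline carrier, had signals of 6.98, 6.92 and 7.04 in IPEC-1 and of 6.29, 6.53 and 6.37 in IPEC-J2, 1.5-fold lower (log2 difference -0.58, SE 0.0737, adjusted p = 0.0105). The call held with the culture note as a block (0.0257) and was lost without IPEC-J2 replicate 3 (0.0509). Its 2 probe sets above the floor were lower by -0.96 and -0.78. SLC52A2, a riboflavin carrier, had signals of 8.53, 8.42 and 8.40 in IPEC-1 and of 7.91, 8.14 and 7.93 in IPEC-J2, 1.37-fold lower (log2 difference -0.46, SE 0.08, adjusted p = 0.0237). With the note as a block the adjusted p was 0.107, and the call was lost in every fit without 1 array other than IPEC-J2 replicate 2 (0.0654 to 0.0886).

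The other genes of this group were not called. SLC5A6, the sodium-coupled carrier of biotin and pantothenate, differed by 0.07 (95% interval -0.48 to 0.62, adjusted p = 1). The vitamin C carrier SLC23A2 was at the floor on every array except IPEC-J2 replicates 2 and 3, with 6.30 and 5.81 (adjusted p = 0.249, and 0.0113 without IPEC-J2 replicate 1), and its relative SLC23A1 was at the floor throughout. SLC44A4, with signals of 10.28, 10.08 and 11.19 in IPEC-1 and of 11.12, 11.33 and 11.19 in IPEC-J2, overlapped between the lines because of IPEC-1 replicate 3 (difference 0.70, adjusted p = 0.243, and 0.0184 without that array). SLC46A3 differed by -0.26 (0.506), the fatty acid carrier SLC27A1 was above the floor on 1 IPEC-1 array only, and SLC27A6 and SLC46A2 were at the floor on every array.

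Carriers of nucleosides and nucleotide sugars, with the acetyl-CoA carrier SLC33A1 and less known members of the SLC35 family, had 2 higher and no lower gene among 14, with 11 measured. SLC35D2, a Golgi carrier of nucleotide sugars, had signals of 7.17, 7.22 and 7.25 in IPEC-1 and of 8.13, 8.15 and 8.16 in IPEC-J2. The cultures of a line were close together, and IPEC-J2 was 1.91-fold higher (log2 difference 0.93, SE 0.0240, adjusted p = 0.000131, 0.0160 with the culture note as a block), or 1.23-fold with means raised to 7.85. SLC35C1, which brings GDP-fucose into the Golgi apparatus, stood at the floor in all IPEC-1 cultures and had signals of 6.97, 7.44 and 7.09 in IPEC-J2. It was called higher (log2 difference 3.17 with the floor taken as the signal, SE 0.134, adjusted p = 0.000535, 0.0195 with the note as a block). Its IPEC-J2 mean of 7.17 ± 0.24 (SD, n = 3) lay below the level of stray signals of 7.85, so no lower bound of the fold above 1 can be given.

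Other genes of this group did not overlap between the lines but were not called. SLC35B1 had signals of 9.01, 9.36 and 8.97 in IPEC-1 and of 9.69, 9.48 and 9.50 in IPEC-J2 (difference 0.44, adjusted p = 0.0952, and 0.0360 without IPEC-1 replicate 2). SLC35C2 differed by 0.32 (0.0761, and 0.0381 without IPEC-J2 replicate 1) and was called with quantile normalization, with 75th percentile centring and by its brightest probe set. SLC35A4 differed by 0.21 (0.166, and 0.0244 without IPEC-1 replicate 2), and SLC35F6 by -0.42 (0.0753). SLC35A3, SLC35B2, SLC35B3, SLC33A1 and SLC35F5 differed by -0.13 to 0.25, with overlap between the lines in each. Of these, SLC35F5 (difference 0.25) was called with the culture note as a block (0.0185). The nucleoside carriers SLC28A1, SLC28A3 and SLC29A1 were at the floor on all 6 arrays.

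Among carriers of metals, 1 of 13 genes was lower and none was higher, with 12 measured. SLC39A1, a zinc importer of the plasma membrane, had signals of 10.38, 10.47 and 10.40 in IPEC-1 and of 9.80, 9.62 and 9.59 in IPEC-J2, and was 1.68-fold lower (log2 difference -0.75, SE 0.0703, adjusted p = 0.00510). The difference was -0.80 within note A and -0.67 within note B, the call held with the note as a block (0.0238), and both probe sets were lower, by -0.78 and -0.72 (adjusted p = 0.000366 and 0.0330 among all probe sets). SLC39A7, a zinc carrier of the endoplasmic reticulum, had signals of 10.13, 10.72 and 10.36 in IPEC-1 and of 9.75, 9.69 and 9.47 in IPEC-J2. Its difference of -0.77 missed the threshold (adjusted p = 0.0524) and was called when genes at the floor on all arrays were left out of the fit (0.0313), after quantile normalization and under other settings, but in no fit that left out a single array.

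SLC39A4, the zinc carrier of the apical membrane, had signals of 7.52, 7.84 and 7.59 in IPEC-J2, whereas in IPEC-1 it was at the floor on replicates 1 and 2 and at 7.54 on replicate 3. The difference of 2.47 (95% interval -0.55 to 5.49, adjusted p = 0.228) thus turned on a single IPEC-1 culture, and without it the gene was called (3.65, adjusted p = 0.00200). SLC39A2 was lower without overlap, with 8.08, 8.28 and 7.61 in IPEC-1, against 4.00, 6.42 and 6.90 in IPEC-J2 (difference -2.22, adjusted p = 0.172). SLC11A2, the proton-coupled iron carrier, had signals of 4.87, 5.01 and 5.01 in IPEC-1 and of 4.74, 4.82 and 4.71 in IPEC-J2. Of its 4 probe sets 3 were at the floor on all arrays, and the fourth differed by -0.86 (adjusted p = 0.0998 among all probe sets, 0.0674 for the gene). The gene was called without IPEC-1 replicate 1 (0.0385). The copper carrier SLC31A1 differed by 0.20 (95% interval -0.73 to 1.14, adjusted p = 0.842), with 7.50 on IPEC-J2 replicate 2 and 6.38 to 6.65 on the other arrays. This value averages 2 probe sets of unlike level. The brighter had means of 9.13 in IPEC-1 and 8.77 in IPEC-J2 (difference -0.36, adjusted p = 0.0910 among all probe sets). The other was at the floor in all IPEC-1 cultures and on 2 IPEC-J2 arrays. With means raised to the level of stray signals, the difference of SLC31A1 was -0.18. SLC30A3, SLC30A5, SLC31A2, SLC39A14 and SLC41A1 had differences of -0.15 to 0.14. SLC39A5 was above the floor on 1 array, and SLC11A1 on none.

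No carrier of inorganic ions was called among 14 genes, and 9 of these were at the floor on all 6 arrays. Among these 9 were the sodium-proton exchanger SLC9A3 of the brush border, its relatives SLC9A4 and SLC9A5, the anion exchangers SLC4A2 and SLC26A6, the sodium bicarbonate carrier SLC4A4, and SLC5A5, SLC8A1 and SLC17A1. SLC26A3, the chloride-bicarbonate exchanger of the gut, was above the floor only on IPEC-1 replicate 1 (5.89), and the phosphate carrier SLC34A2 only on IPEC-1 replicate 3 (5.32). The potassium-chloride carrier SLC12A4 differed by -0.01 (95% interval -0.62 to 0.60) and SLC26A11 by -0.02 (95% interval -0.61 to 0.56). SLC8B1, which exchanges sodium for calcium in mitochondria and entered by its name, was at 6.61 to 6.97 on every array except IPEC-J2 replicate 1, where it was at the floor (adjusted p = 0.651). All 5 measured differences were negative in the signals as deposited, whereas 3 were negative after quantile normalization or 75th percentile centring.

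No carrier of organic anions and cations was called among 10 genes. All 6 measured genes had a positive difference, also after quantile normalization and 75th percentile centring, but 3 of them (SLC6A4, SLC10A1 and SLC22A3) were above the floor on 1 array only. The creatine carrier SLC6A8 had signals of 7.66, 8.09 and 8.24 in IPEC-1 and of 9.01, 8.56 and 8.81 in IPEC-J2, without overlap (difference 0.80, 95% interval 0.24 to 1.35, adjusted p = 0.0655). The carnitine carrier SLC22A5 had 6.63, 4.00 and 6.39 in IPEC-1, against 7.33, 7.98 and 7.95 in IPEC-J2 (difference 2.08, adjusted p = 0.173). SLC16A13, of the monocarboxylate carrier family, had 6.09, 4.00 and 6.13 in IPEC-1, against 7.15, 7.44 and 7.48 in IPEC-J2 (difference 1.95, adjusted p = 0.129). In both, IPEC-1 replicate 2 was at the floor and the lines did not overlap, and without that array SLC16A13 was called (0.0190). The lactate carrier SLC16A3 and SLC22A2, SLC22A6 and SLC22A8 were at the floor on all arrays.

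**Figure D4:**
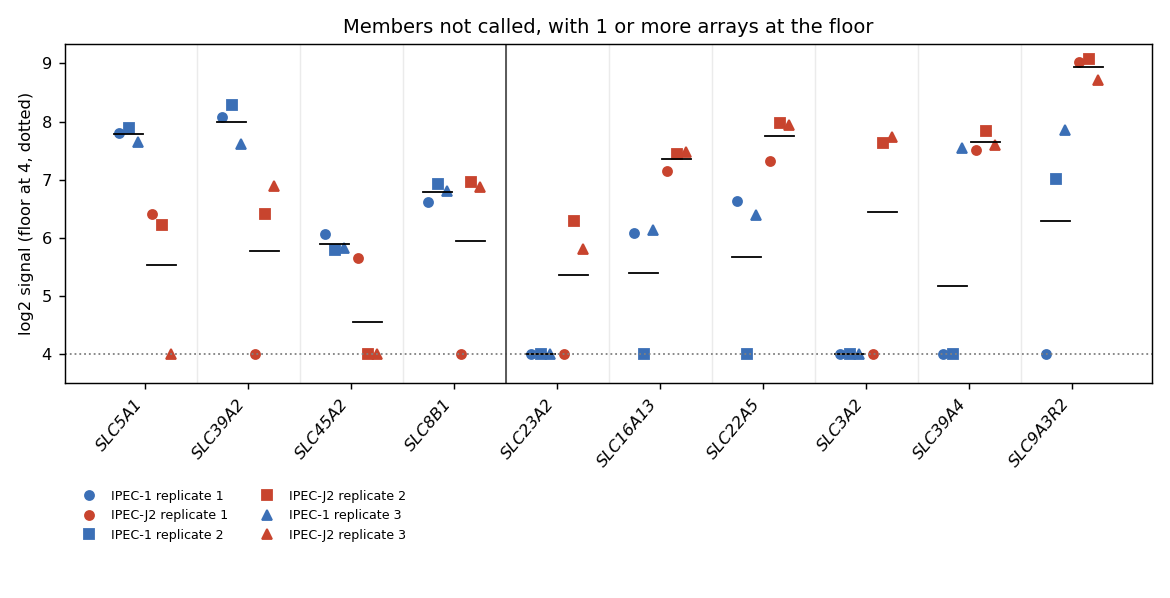
Log2 signal on each of the 6 arrays of 10 genes taken in by the name rule, among them the scaffold SLC9A3R2, that were not called and had at least 1 array at the floor (blue, IPEC-1; red, IPEC-J2; the marker shape gives the replicate; black bars, means; dotted line, floor at 4). Genes left of the vertical line had a negative difference and those right of it a positive one. The colours do not overlap in SLC5A1, SLC39A2, SLC45A2, SLC16A13, SLC22A5 and SLC9A3R2, each of which has arrays of 1 line at the floor.

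The name rule also took in 2 genes that are not carriers. SLC9A3R2, a scaffold that binds apical exchangers, had signals of 4.00, 7.01 and 7.85 in IPEC-1 and of 9.03, 9.08 and 8.72 in IPEC-J2 (difference 2.66, adjusted p = 0.196). The groups did not overlap, and the IPEC-1 cultures were spread from the floor to 7.85. SLC2A4RG, a transcription factor, differed by 0.19 (adjusted p = 0.24).

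Genes that work with the carriers were taken from a list of 96, of which 55 had a value and 40 were measured. Of the 55, 4 were higher and 3 lower in IPEC-J2 (12.7% called, against 20.7% of all genes), with a median log2 difference of 0.21 over the measured ones. Higher were the transcription factor HNF4A, which controls many enterocyte genes, the water channel AQP8, the iron storage protein FTH1 and ARL6IP5, which binds the glutamate carrier SLC1A1. Lower were EMB, an accessory protein of lactate carriers, FXYD3, a regulator of the sodium pump, and PDZK1, a scaffold of apical carriers.

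HNF4A had signals of 4.00, 4.82 and 4.98 in IPEC-1 and of 8.81, 8.62 and 8.61 in IPEC-J2, a log2 difference of 4.08 (SE 0.295, adjusted p = 0.00244, 0.0297 with the culture note as a block), or 1.16 with means raised to 7.85. AQP8 stood at the floor in all IPEC-1 cultures and at 6.94, 7.25 and 7.13 in IPEC-J2 (adjusted p = 0.000157, 0.0151 with the block), below the level of stray signals. These 2 genes and PDZK1 kept their call without any 1 array.

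EMB had signals of 6.16, 6.45 and 6.29 in IPEC-1 and of 4.42, 4.89 and 4.00 in IPEC-J2 (difference -1.86, adjusted p = 0.0135). PDZK1 differed by -0.30 (0.00927) at signals below 5 in both lines. The means of EMB and PDZK1 lay below the level of stray signals in both lines, so that no difference was left on that scale. FXYD3 had signals of 10.21, 10.69 and 10.76 in IPEC-1 and of 9.86, 9.71 and 9.74 in IPEC-J2, 1.72-fold lower (adjusted p = 0.0416). FTH1 and ARL6IP5 were higher by 0.28 (0.0215) and 0.35 (0.0396). The lines did not overlap in any of the 7 called genes, so their differences had to have the same sign within notes A and B. With the note as a block, EMB and the 4 genes that follow it here were no longer called (0.0559 for EMB, 0.0653 for PDZK1, 0.102 for FXYD3, 0.0692 for FTH1 and 0.0717 for ARL6IP5). EMB was lost without IPEC-1 replicate 2 or 3, FTH1 without any 1 array except IPEC-1 replicates 1 and 2, FXYD3 without any except IPEC-1 replicate 1, and ARL6IP5 without any except IPEC-1 replicate 3 (up to 0.0530, 0.0773, 0.137 and 0.135).

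The sodium pump subunits ATP1B1 and ATP1B3 differed by 0.28 (95% interval -0.13 to 0.69, adjusted p = 0.309) and 0.66 (95% interval -0.11 to 1.44, adjusted p = 0.210). BSG, the chaperone of lactate carriers, differed by 0.21 (adjusted p = 0.214), and SGK1, a kinase that acts on many carriers, by -1.03 (0.191). The water channel AQP3 had 11.76, 10.74 and 12.09 in IPEC-1, against 12.46, 13.54 and 13.10 in IPEC-J2, without overlap (difference 1.50, adjusted p = 0.112), and was called with the culture note as a block (0.0323). The metal-binding protein MT1A had 8.96, 4.00 and 4.00 in IPEC-1, against 10.44, 10.06 and 10.94 in IPEC-J2 (difference 4.83, adjusted p = 0.115). The hydrolases ANPEP, DPP4 and ENPEP, which release amino acids and short peptides at the brush border, and the chloride channel CFTR were at the floor on all arrays. Of the other hydrolases listed, MEP1B was above the floor on IPEC-1 replicate 3 only, and GGT1 was at the floor in all IPEC-1 cultures and at 4.50, 5.42 and 5.12 in IPEC-J2 (adjusted p = 0.0631).

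**Figure D5:**
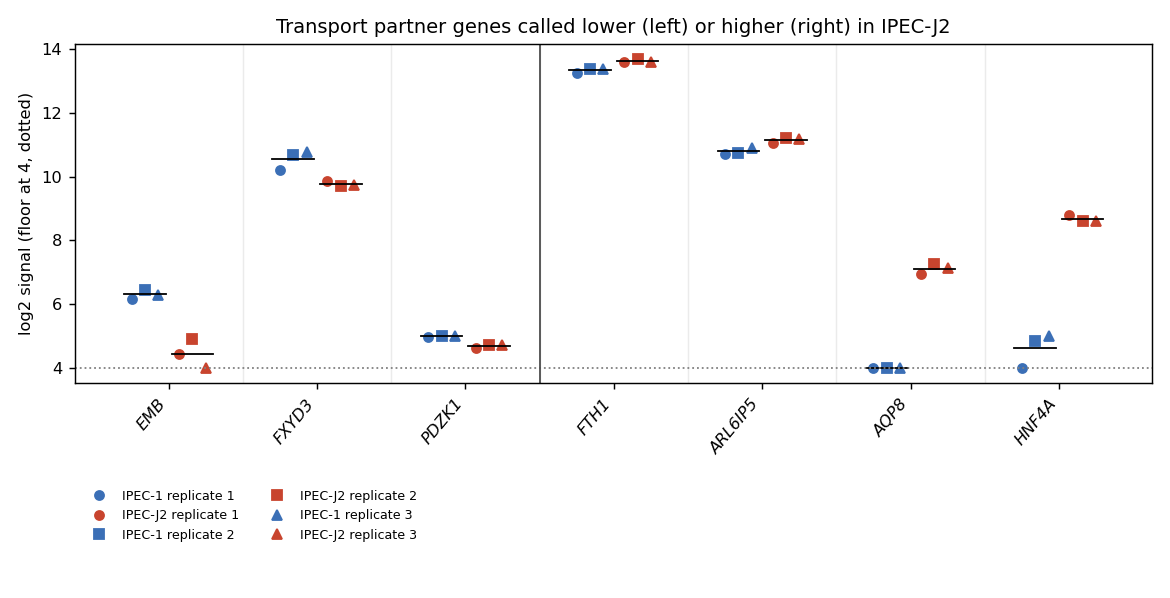
Log2 signal on each of the 6 arrays of the 7 called genes from the list of transport partners (blue, IPEC-1; red, IPEC-J2; the marker shape gives the replicate; black bars, means; dotted line, floor at 4). Genes left of the vertical line were lower and those right of it higher in IPEC-J2. HNF4A and AQP8 show a wide gap between the colours, whereas FTH1 and ARL6IP5 differ by 0.28 and 0.35.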

How the data were processed

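The authors deposited 1 table of log2 signals for 24123 probe sets on 6 arrays, for which the submitters' processing notes name GCOS 1.1.1 and PLIER. The methods name a later GCOS and describe global scaling, background correction and normalization. The log base is not stated and was read from the floor of exactly 4, the log2 of 16. No detection calls were used, and no further normalization was applied. Without the 124 controls, 23999 probe sets remained, and the platform annotation gives 1 symbol for 10069 of them, several for 198 and none for 13732. These were averaged per symbol to 6765 genes, of which 1252 were at the floor on every array. Of the 97 members, 96 had an entry in the RefSeq gene table, each with the same symbol, and 33 had more than 1 probe set. Sequences and coordinates were not used here.

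Cell lines were taken from the sample titles. In the labels' culture text both lines carry a single catalogue number of the cell collection, whereas each has its own in the methods, and the titles were followed. The lines were compared by limma's lmFit and eBayes (limma 3.58.1, R 4.3.3) without a block. P-values were adjusted by Benjamini-Hochberg across the 6765 genes, with 0.05 as the threshold, and the code was tested on simulated data. An exact permutation test of 3 against 3 arrays cannot give a p under 0.1. Members and lists were chosen with earlier results of these data known. Genes named by rule were the called members, set intestinal carriers and called partners. Other genes named were chosen after their values were seen. Alternatives were the brightest probe set, quantile normalization, 75th percentile centring, a pseudocount of 16, filters, moderation, the methods' t-test, blocks and left-out arrays. Stray signal levels are the 95th percentile, among signals above the floor, of probe sets for which the remaining arrays of the line are at the floor. Raising means to these levels and leaving out culture note B were chosen after seeing the data.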

Additional observations from a re-analysis of the deposited data

How the results depend on the processing

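All 15 called solute carriers kept their sign under every fit in which they were tested. In fits that left out arrays this had to be so, as the lines did not overlap in any of the 15. Fits with a block on all 6 arrays give the same differences as the main fit. The number called was 15 (6 higher, 9 lower) and lay between 14 and 18 with the brightest probe set, quantile normalization, 75th percentile centring, a pseudocount of 16, either filter on low signals, trended and robust moderation, the adjusted t-test of the methods, the culture note as a random block and the count by single probe sets. By that t-test without adjustment, 23 were called, 10 of them higher. The filter on a mean under 6 kept the total of 15 with other genes. It left 11 of the 15 called genes in the test, all still called, and SLC37A4, SLC39A7, SLC5A1 and SLC6A8 were gained. With the culture note as a block, 10 were called, and without the 2 arrays of note B 14 were, 5 of them lower. In the 4 arrays of notes A and B, with 1 residual degree of freedom, limma called 0, while 19 of the 97 had an unadjusted p under 0.05. Quantile normalization called 8 carriers higher and 9 lower, beside 794 and 895 of all genes. With the pseudocount these were 6 and 9, beside 648 and 781. Beyond these, the main fit and 75th percentile centring, counts over all genes are not given. Counts under every other setting, including fits without 1 array, therefore cannot be set against other genes, for carriers and partner genes alike. Leaving out 1 array gave 9 to 17 called, 3 to 10 higher and 6 to 10 lower; the lowest total came without IPEC-J2 replicate 3. Of the 7 partner genes called (4 higher, 3 lower), the count was 4 to 9 without 1 array, 2 to 5 of them higher and 1 to 4 lower. It was 11 (7 higher) by the unadjusted t-test, 3 (0 lower) with the note as a block, 2 (1 higher, 1 lower) without note B, and by limma 0 in the 4 arrays of both notes, where 6 of 55 had an unadjusted p under 0.05. By single probe sets 1 partner was lower.

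Deviations from the line means correlated at -0.06, -0.11 and 0.06 in arrays with the same replicate number in their titles. The arrays that share note A correlated at 0.06, those that share note B at 0.17, and the remaining pair, which no label ties, at 0.09. With 3 arrays per line the deviations within a line depend on each other, so these correlations cannot tell whether arrays were paired. With the replicate block, 4 solute carriers were called (2 higher, 2 lower), and 3 partner genes (2 higher, 1 lower). The differences are the same as in the main fit, and fewer degrees of freedom are left. As many are left with the culture note as a block, where 10 solute carriers were called. Why these 2 counts differ was not tested.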
